A study of Mus musculus with 16 samples.

Results

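The fibroblast growth factor (FGF) genes described here are 5 ligands and 3 receptors, Fgf1, Fgf2, Fgf7, Fgf10, Fgf18, Fgfr1, Fgfr2 and Fgfr3, in cultured mouse cardiac fibroblasts. They were chosen by name, and each symbol was matched to 1 Ensembl identifier of the count table (ENSMUSG00000036585, ENSMUSG00000037225, ENSMUSG00000027208, ENSMUSG00000021732, ENSMUSG00000057967, ENSMUSG00000031565, ENSMUSG00000030849 and ENSMUSG00000054252, in the order above). The 8 genes are 8 of 55414 in the table, and all 8 were among the 15285 that passed the filter on low counts. RNA sequencing covered 4 groups of 4 libraries: Cre virus with TGF-beta, GFP virus with TGF-beta, Cre virus alone and GFP virus alone. Each group held replicates 1 to 4, and libraries with the same replicate number share a sex (male for 1 and 4, female for 2 and 3) and a code in their library names. Such a set is called a preparation here, although the labels do not say what the code stands for. The treatment protocol names Has2 fl/fl mice, in which Cre deletes exon 2 of the hyaluronan synthase gene Has2, while the genotype label of every library reads wild type C57BL/6J, and the labels do not settle this. All cells were at P2, as the labels write it, were kept without serum for 24 h, and received an adenovirus carrying Cre or GFP. Fresh medium followed 5 h later, and RNA was taken after 48 h of stimulation. The age of the animals is not given in the labels, nor is it stated whether cells of several hearts were pooled. P-values therefore measure the spread between these libraries, which may be technical in part.

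FGFs are secreted proteins that bind receptor tyrosine kinases together with heparan sulfate chains on the cell surface and activate the RAS and MAP kinase relay. Alternative splicing of the third immunoglobulin domain gives FGFR1, FGFR2 and FGFR3 an epithelial (b) and a mesenchymal (c) form. FGF7 and FGF10, made by mesenchymal cells, bind mainly the b form of FGFR2 on epithelia, while FGF2 is a known mitogen of fibroblasts. FGF2 protein, under its older name basic FGF, was part of the growth medium of all cells. The protocol also names 20 ng/mL of it and of TGF-beta in the stimulation medium, in wording that leaves unclear whether the cells without TGF-beta received it. The counts below are of cellular RNA, not of this added protein.

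Library totals ranged from 17.9 to 48.7 M counts. Has2, the gene targeted by Cre, stood at 12.5, 11.0, 25.0 and 17.4 counts per M (CPM, on library totals scaled by TMM factors) in Cre libraries with TGF-beta, in the order of preparations 1 to 4, against 15.3, 9.47, 21.9 and 20.7 CPM in GFP libraries with TGF-beta. Without TGF-beta, Has2 stood at 14.9, 13.5, 16.6 and 13.9 CPM in Cre libraries, against 18.0, 15.3, 23.2 and 18.4 CPM in GFP libraries. Without TGF-beta, Has2 was lower in the Cre library of 4 of 4 preparations, by 0.18 to 0.48 on the log2 scale, and with TGF-beta in 2 of 4. The groups overlapped in both media. In a fit that does not pair libraries by preparation, the Has2 difference did not pass the test (log2 fold change -0.03 ± 0.26 SE with TGF-beta and -0.35 ± 0.26 without it, edgeR adjusted p = 1.00 for both). Counts over the whole gene include exons that Cre does not remove. Acta2, the smooth muscle actin gene that marks myofibroblasts, averaged 2205 ± 488 CPM in Cre cells with TGF-beta and 310 ± 62.7 CPM in Cre cells without it (SD, n = 4 each). In GFP cells the averages were 2245 ± 576 CPM with TGF-beta and 328 ± 63.4 CPM without it. The libraries of preparation 4 stood apart from the others on the second principal component, which held 20.3% of the variance.

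With TGF-beta, 6 of the 8 FGF genes changed in Cre cells and the same 6 changed in GFP cells. Fgf2 and Fgf18 rose, and Fgf1, Fgf7, Fgf10 and Fgfr2 fell, while Fgfr1 and Fgfr3 did not pass the test. Over all genes tested, 30.3% were called in Cre cells (14.0% higher and 16.3% lower) and 29.1% in GFP cells (13.8% higher and 15.3% lower), at an edgeR adjusted p under 0.05. With the preparation added as a block, 52.5% of genes were called in Cre cells (25.2% higher and 27.3% lower) and 49.1% in GFP cells (22.6% higher and 26.5% lower), and the FGF genes called were again these 6. The median log2 fold change of the 8 genes was -0.73 in Cre cells and -0.88 in GFP cells, against 0.02 and -0.02 over all genes tested. The responses of Cre and GFP cells were measured against separate untreated libraries but from libraries with the same 4 codes.

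Promoter windows of 6 of the 8 genes were read from a RefSeq table (build GRCm38.p6). Each reached from 250 bases before to 50 bases after the annotated start. No window of Fgf1 or Fgfr1 was used, so Fgf1, which fell, is missing from this comparison. The matching of genes to windows skipped a chromosome, so a missing window does not mean that RefSeq holds none. The 250 bases before the start are printed for the 5 genes with a window read that changed with TGF-beta. They set the starts of genes that rose beside those of genes that fell. Capitals mark matches on either strand to TATAAA, to the GC box GGGCGG, to CCAAT, to the SMAD element CAGAC or to the AP-1 site TGANTCA, where N is any base. No printed match overlaps another. Each sequence reads 5′ to 3′ on the gene's own strand, and the first pair rose while the other three fell.
Fgf2 (chr3:37348403-37348652, plus strand): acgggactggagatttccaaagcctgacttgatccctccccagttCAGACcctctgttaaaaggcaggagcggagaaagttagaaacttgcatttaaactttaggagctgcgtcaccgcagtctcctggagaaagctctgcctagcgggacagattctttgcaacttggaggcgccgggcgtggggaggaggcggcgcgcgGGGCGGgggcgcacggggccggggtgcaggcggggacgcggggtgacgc
Fgf18 (chr11:33147401-33147650, minus strand): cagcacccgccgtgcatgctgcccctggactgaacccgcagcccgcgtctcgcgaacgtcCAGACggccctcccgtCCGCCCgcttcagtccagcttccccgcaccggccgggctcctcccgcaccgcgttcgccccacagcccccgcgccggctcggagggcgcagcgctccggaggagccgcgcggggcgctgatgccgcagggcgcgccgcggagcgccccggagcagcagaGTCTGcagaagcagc
Fgf7 (chr2:126034408-126034657, plus strand): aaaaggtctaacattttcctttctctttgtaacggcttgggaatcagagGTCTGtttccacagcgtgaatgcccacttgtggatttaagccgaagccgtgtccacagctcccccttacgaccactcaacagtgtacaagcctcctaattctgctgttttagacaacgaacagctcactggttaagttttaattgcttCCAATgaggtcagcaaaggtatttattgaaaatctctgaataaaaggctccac
Fgf10 (chr13:118714449-118714698, plus strand): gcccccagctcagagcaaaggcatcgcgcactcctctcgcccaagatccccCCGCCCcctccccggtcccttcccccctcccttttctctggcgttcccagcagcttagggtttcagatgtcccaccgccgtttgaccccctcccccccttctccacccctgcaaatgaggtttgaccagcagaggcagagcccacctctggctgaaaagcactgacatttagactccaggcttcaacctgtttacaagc
Fgfr2 (chr7:130266809-130267058, minus strand): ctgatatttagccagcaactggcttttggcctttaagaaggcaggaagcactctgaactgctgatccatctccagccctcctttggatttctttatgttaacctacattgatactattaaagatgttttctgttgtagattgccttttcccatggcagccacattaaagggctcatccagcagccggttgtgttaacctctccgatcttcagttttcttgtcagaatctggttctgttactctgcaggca

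In these windows, counted back from the base before the start as -1, CAGAC or its complement began at -205 in Fgf2, at -190 and -15 in Fgf18 and at -201 in Fgf7. The GC box began at -49 in Fgf2, at -174 in Fgf18 and at -199 in Fgf10, and CCAAT began at -53 in Fgf7. Fgfr2 held none of the 5 motifs, and neither TATAAA nor the AP-1 site occurred in any of the 5 windows. Of the 32851 windows read, 49.6% held CAGAC, 35.7% the GC box, 37.4% CCAAT, 13.6% TATAAA and 7.81% the AP-1 site. CAGAC, the GC box and CCAAT are thus frequent in windows of this length. The windows also differed in base composition. Guanine and cytosine made up 62.7% of the 300 bases in Fgf2 and 78.7% in Fgf18. Their share was 45.7% in Fgf7, 60.7% in Fgf10 and 43.7% in Fgfr2, beside a median of 52.7% over all windows read. Fgf18 held 47 CpG dinucleotides and Fgf2 held 24, against 11 in Fgf7, 10 in Fgf10 and 4 in Fgfr2. The 2 windows of Fgfr3, which did not pass the test with TGF-beta, lay above Fgf2 in both respects. They held 69.7% and 73.0% guanine and cytosine, and 26 and 30 CpG dinucleotides. These are descriptions of letters near an annotated start, and no binding or methylation was measured.

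Among the ligands, Fgf2 had the highest level per exon length in every group. In Cre cells, Fgf2 stood at 207, 151, 253 and 216 CPM with TGF-beta, against 80.6, 61.9, 86.3 and 142 CPM without it, each in the order of preparations 1 to 4. In GFP cells the values were 209, 125, 182 and 242 CPM with TGF-beta, against 96.5, 56.5, 73.4 and 166 CPM without it. All 4 Cre libraries with TGF-beta lay above all 4 without it, whereas in GFP cells the untreated library of preparation 4 lay above the treated library of preparation 2, so those groups overlapped. The log2 fold change was 1.16 ± 0.32 in Cre cells (edgeR adjusted p = 0.0129) and 0.95 ± 0.32 in GFP cells (adjusted p = 0.0358), and Fgf2 was higher with TGF-beta in 4 of 4 preparations of each.

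The Fgf2 change was smallest in preparation 4, whose untreated libraries already held more Fgf2 RNA than the other untreated ones. Within preparation 4 the log2 difference was 0.61 in Cre cells and 0.54 in GFP cells, against 1.28 to 1.55 and 1.11 to 1.31 in the other 3. With the preparation as a block, the log2 fold change was 1.22 ± 0.16 in Cre cells (edgeR adjusted p = 3.27e-05) and 1.01 ± 0.16 in GFP cells (adjusted p = 0.00018). Without the block, the call in GFP cells was lost when any of several single libraries was left out, with edgeR adjusted p of 0.0794, 0.0998 and 0.108 without GFP libraries 1, 2 and 3, and 0.077, 0.0595 and 0.0943 without treated GFP libraries 1, 3 and 4. Still without the block, it was also lost without preparation 1 (adjusted p = 0.201) or 3 (0.172), as was the call in Cre cells (0.111 and 0.107). Exons of Fgf2 overlap those of Nudt6 on the opposite strand over 640 bases, 9.44% of its exon length in GENCODE M21, and Nudt6 held 38 to 212 counts per library against 1568 to 6621 for Fgf2.

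Fgf18, which encodes a ligand best known from bone, cartilage and lung development, had the largest rise among the 8 genes. Cre cells held 22.4, 22.5, 15.5 and 25.5 CPM of Fgf18 with TGF-beta, against 4.13, 7.74, 4.37 and 3.64 CPM without it. GFP cells held 26.4, 19.5, 15.3 and 28.9 CPM with TGF-beta, against 4.29, 9.11, 3.40 and 4.51 CPM without it. Treated and untreated libraries did not overlap with either virus, and the untreated libraries of preparation 2 were the highest of their groups. The log2 fold change was 2.10 ± 0.32 in Cre cells (edgeR adjusted p = 0.000172) and 2.07 ± 0.32 in GFP cells (adjusted p = 0.000211), a 4.30-fold and a 4.21-fold rise. Within preparations the log2 difference ran between 1.53 and 2.79 in Cre cells and between 1.10 and 2.66 in GFP cells, lowest in preparation 2 each time.

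Fgf7, or keratinocyte growth factor, fell with TGF-beta in all preparations. In Cre cells its values were 9.86, 7.46, 13.1 and 5.73 CPM with TGF-beta, against 22.0, 20.6, 17.3 and 32.8 CPM without it. GFP cells had 7.70, 6.73, 7.84 and 5.41 CPM with TGF-beta, against 22.9, 18.0, 17.5 and 33.2 CPM without it. The groups did not overlap with either virus, and preparation 4 was the highest of the untreated libraries and the lowest of the treated ones. The fitted log2 fold change was -1.36 ± 0.27 in Cre cells (edgeR adjusted p = 0.00155) and -1.73 ± 0.28 in GFP cells (adjusted p = 0.000274). Preparation 3 had the smallest fall, with log2 differences of -0.40 in Cre cells and -1.15 in GFP cells, and preparation 4 the largest, with -2.50 and -2.60.

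Fgf10, the second ligand of the FGFR2 b form, fell to near the limit of detection. Cre libraries with TGF-beta held 2, 2, 1 and 8 Fgf10 counts, against 76, 52, 27 and 176 counts in Cre libraries without it. GFP libraries with TGF-beta held 0, 2, 1 and 12 counts, against 38, 30, 31 and 122 counts in GFP libraries without it. The count of 0 in preparation 1 allows up to 0.167 CPM (3 counts, counting error only), and the untreated library of that preparation stood at 1.43 CPM. On the CPM scale the treated libraries lay between 0.0395 and 0.321 in Cre cells and between 0 and 0.439 in GFP cells, and the untreated ones between 1.07 and 4.33 and between 1.08 and 6.18, so the groups did not overlap. Summed over libraries and scaled by depth, Fgf10 was 18.4-fold lower with TGF-beta in Cre cells (95% counting interval 10.6 to 34.8) and 15.3-fold lower in GFP cells (9.10 to 27.9). The fitted log2 fold change was -4.10 ± 0.88 in Cre cells (edgeR adjusted p = 0.00258) and -4.04 ± 0.87 in GFP cells (adjusted p = 0.0028).

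Preparation 4 held the highest Fgf10 level in all 4 groups. Without its treated GFP library the GFP change was -5.79, and without its untreated GFP library it was -3.11. The same library choices gave -5.07 and -3.50 in Cre cells, and the call held in each case. The summed level of macrophage markers was also highest in preparation 4 of every group. Of the 6 listed genes, all detected in every group, 2 were called lower with TGF-beta with either virus (33.3%). Over all genes tested, 16.3% were called lower in Cre cells and 15.3% in GFP cells. With the preparation as a block, 5 of the 6 were called lower in Cre cells and 6 in GFP cells, against 27.3% and 26.5% of all genes. The summed level of the 6 markers was 217 CPM in Cre cells with TGF-beta, 215 in GFP cells with TGF-beta, 436 in Cre cells and 424 in GFP cells of preparation 4. In the other preparations the same sums ran from 83.3 to 105, 84.0 to 112, 169 to 189 and 165 to 208 CPM. The part of these markers in the Fgf10 values was not tested.

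Fgf1, a ligand that binds every FGF receptor with high affinity, fell in all preparations. In Cre cells it stood at 1.65, 1.36, 2.21 and 2.12 CPM with TGF-beta, against 6.61, 4.53, 8.33 and 9.58 CPM without it. In GFP cells it stood at 1.84, 1.96, 1.99 and 2.19 CPM with TGF-beta, against 6.58, 5.00, 8.05 and 7.30 CPM without it. No treated library reached the lowest untreated one with either virus. The change was -1.98 ± 0.24 on the log2 scale in Cre cells (edgeR adjusted p = 1.97e-05) and -1.75 ± 0.24 in GFP cells (adjusted p = 6.39e-05). These were the smallest adjusted p-values among the 8 genes with either virus in the fit without the block. With the preparation as a block, Fgf10 had a smaller one in GFP cells (edgeR adjusted p = 1.97e-07, against 3.14e-07 for Fgf1). Raw counts of Fgf1 ranged from 33 to 73 per treated library and from 139 to 390 per untreated one.

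**Figure D1:**
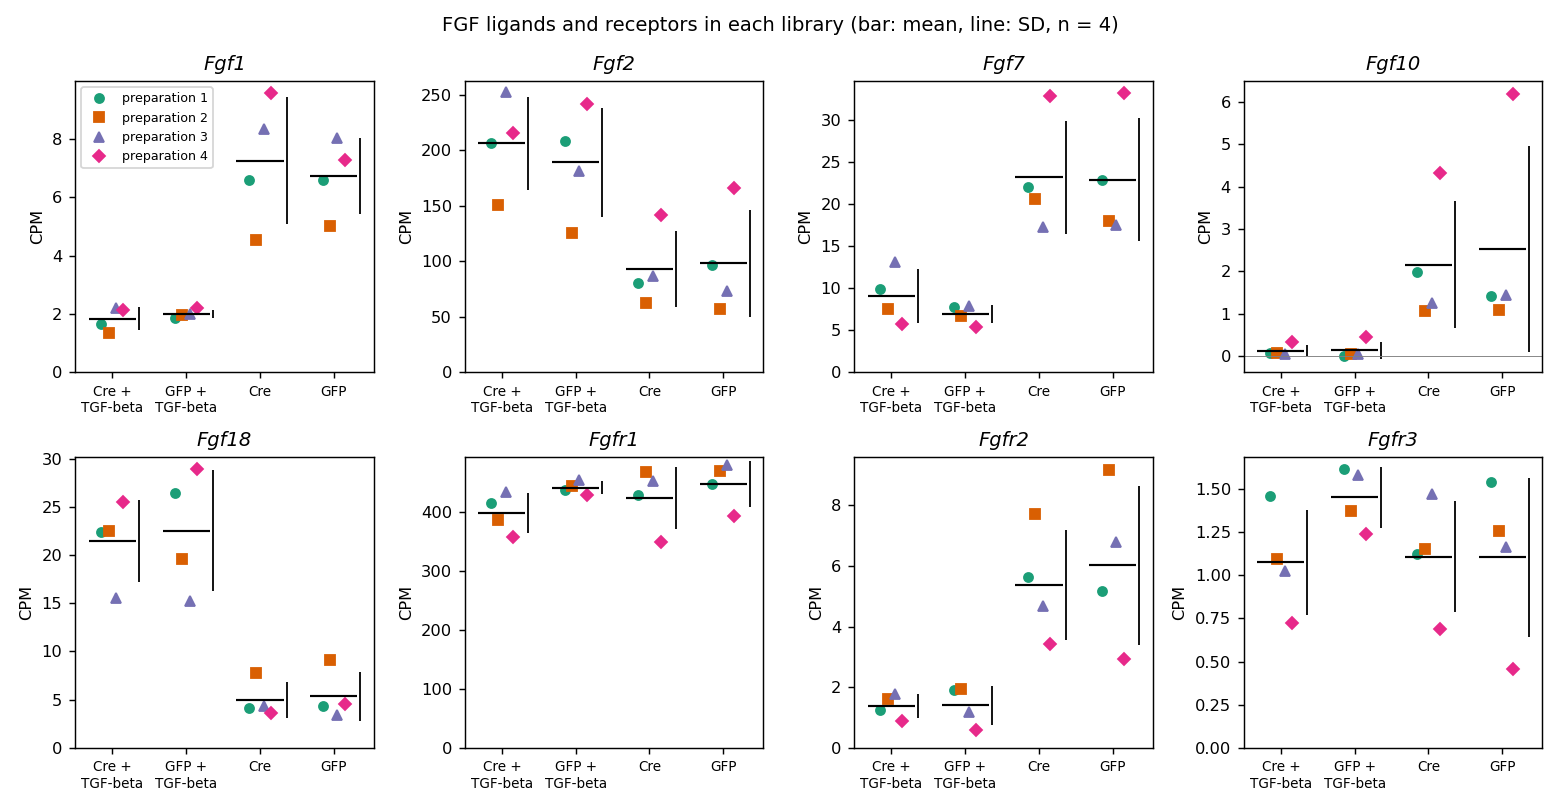
Counts per M (CPM, linear axes that differ between panels) of each FGF gene in the 16 libraries, by group; symbols mark the 4 preparations, horizontal bars the mean and vertical lines the SD. Fgf2 and Fgf18 sit higher with TGF-beta, Fgf1, Fgf7, Fgf10 and Fgfr2 sit lower, and Fgfr1 stays between 349 and 480 CPM in all libraries.

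Of the receptors, Fgfr2 was the one that passed the test with TGF-beta. Its level in Cre cells was 1.23, 1.62, 1.78 and 0.882 CPM with TGF-beta, against 5.64, 7.72, 4.70 and 3.44 CPM without it. Its level in GFP cells was 1.90, 1.94, 1.17 and 0.585 CPM with TGF-beta, against 5.19, 9.18, 6.79 and 2.94 CPM without it. Treated and untreated groups did not overlap, and preparation 4 was the lowest library of every group. The log2 fold change was -1.96 ± 0.40 in Cre cells (edgeR adjusted p = 0.00187) and -2.11 ± 0.41 in GFP cells (adjusted p = 0.00124), a 3.90-fold and a 4.31-fold fall. Counts per gene do not separate the b and c forms. Fgfr2 shares 314 exon bases, 3.04% of its length in GENCODE M21, with Ctbp2 on the same strand, which held 1012 to 2534 counts per library.

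Markers of other cell types moved with TGF-beta too, and in bulk samples fewer cells of a type and less RNA per cell cannot be told apart. Of 6 epithelial markers, Esrp1 was at 0 in all 4 groups and Krt8 at 0 in the untreated groups, while the summed level of the list was 15.7 to 30.6 CPM in Cre cells with TGF-beta and 3.66 to 6.83 CPM without it. The GFP cells gave 16.3 to 29.3 CPM with TGF-beta and 4.06 to 6.93 CPM without it. Esrp2 alone made up most of this sum, at 12.2 to 29.8 CPM in Cre cells with TGF-beta and 3.42 to 6.61 CPM without it, and 14.5 to 28.7 CPM and 3.70 to 6.56 CPM in GFP cells. Epcam and Cdh1 stayed at or below 0.351 and 0.548 CPM in every library. Of 7 pericyte markers, Higd1b was at 0 in GFP cells with TGF-beta. Among the 6 tested, Cspg4 rose and Abcc9, Kcnj8 and Notch3 fell with either virus, with a median log2 fold change of -1.64 in Cre cells and -1.51 in GFP cells over the 6. With the block, 1 rose and 5 fell in Cre cells, and 1 rose and 4 fell in GFP cells. Over all genes tested, 16.3% were called lower in Cre cells and 15.3% in GFP cells, or 27.3% and 26.5% with the block. The summed level of the pericyte list was 76.9 to 150 CPM in Cre cells with TGF-beta and 94.0 to 186 CPM without it, and 98.7 to 180 CPM and 106 to 217 CPM in GFP cells, which adds up these opposite changes. Preparation 4 had the lowest pericyte sum of every group, and likewise the lowest fibroblast sum, Schwann cell sum, Fgfr1, Fgfr2 and Fgfr3. All 7 endothelial markers were detected, with sums of 13.3 to 20.4 CPM in Cre cells with TGF-beta and 30.8 to 44.2 CPM without it, and 14.5 to 24.7 CPM and 32.7 to 45.8 CPM in GFP cells. The part of these cells in the FGF values was not tested. Of the defining markers of fibroblasts, 8 of 8 were detected in every group, and 6 of the 8 fell with TGF-beta with either virus, including Pdgfra and Tcf21. The other 2 were the collagen genes Col1a1 and Col1a2. Col1a1 was higher with TGF-beta in 4 of 4 preparations with either virus, by 0.75 ± 0.36 in Cre cells and 0.85 ± 0.36 in GFP cells on the log2 scale, and was called with the block only. Col1a2 differed by 0.21 ± 0.31 and 0.25 ± 0.31 and was called, as higher, with the block in GFP cells. The fibroblast sum, made up mostly of these 2 genes, had a median of 30467 CPM in Cre cells with TGF-beta and 23737 CPM without it, and 33771 CPM and 25198 CPM in GFP cells.

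Fgfr1, the receptor with the highest level in these cells, differed little between groups. It stood at 415, 387, 435 and 357 CPM in Cre cells with TGF-beta, against 429, 467, 452 and 349 CPM without it. In GFP cells it stood at 438, 444, 455 and 429 CPM with TGF-beta, against 448, 470, 480 and 393 CPM without it. The groups overlapped. The fitted log2 fold change of Fgfr1 was -0.09 in Cre cells (95% interval -0.31 to 0.13, edgeR adjusted p = 0.531) and -0.02 in GFP cells (-0.24 to 0.20, adjusted p = 0.899).

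Fgfr3 had few counts, from 9 to 56 per library. Cre cells held 1.46, 1.09, 1.03 and 0.721 CPM of it with TGF-beta, against 1.12, 1.15, 1.47 and 0.688 CPM without it. GFP cells held 1.62, 1.37, 1.58 and 1.24 CPM with TGF-beta, against 1.54, 1.26, 1.16 and 0.456 CPM without it. Both pairs of groups overlapped. The log2 fold change was -0.03 with a 95% interval from -0.71 to 0.66 in Cre cells and 0.37 with an interval from -0.32 to 1.07 in GFP cells, where all 4 preparations were higher with TGF-beta (edgeR adjusted p = 0.958 and 0.426).

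**Figure D2:**
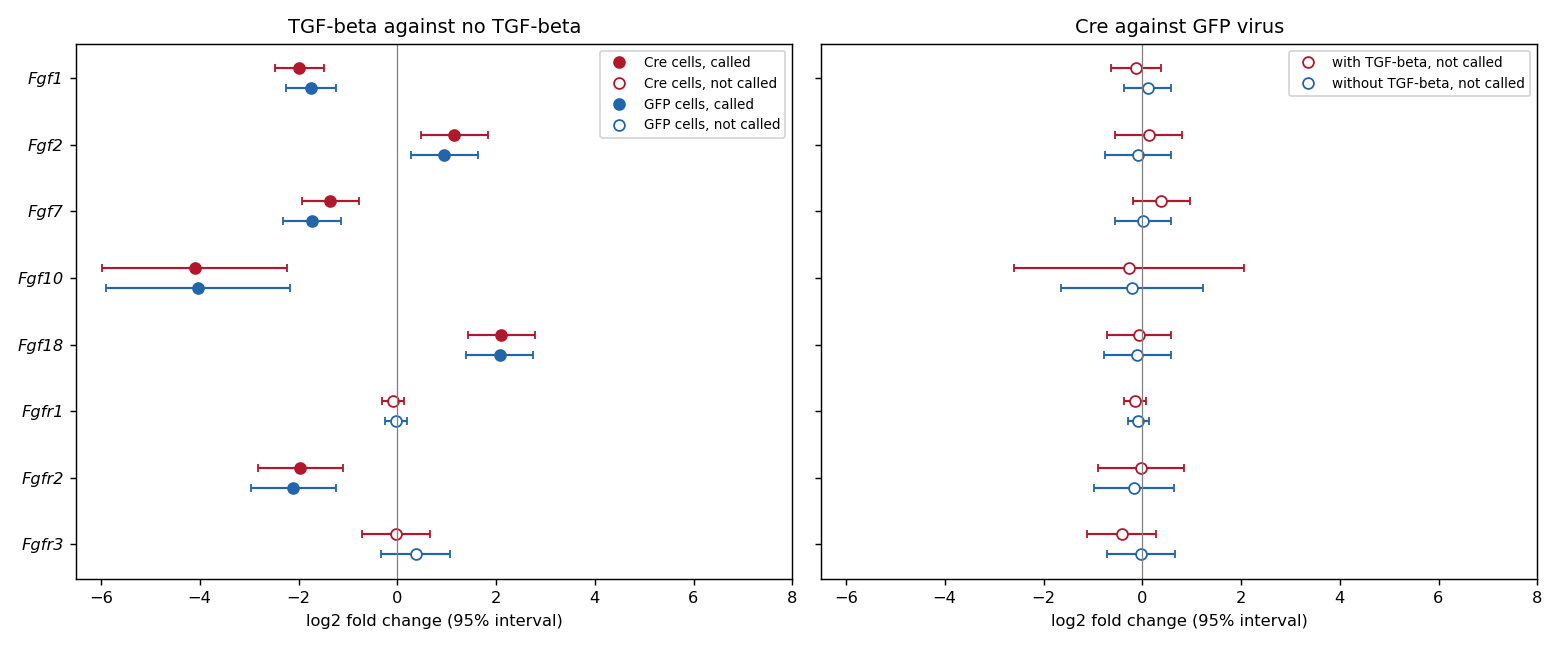
Fitted log2 fold changes with 95% intervals for the 8 FGF genes, TGF-beta against none (left) and Cre against GFP virus (right); filled points have an adjusted p under 0.05. With TGF-beta, 6 of 8 genes are filled in Cre and in GFP cells, from -4.10 for Fgf10 to 2.10 for Fgf18, and none is filled on the right.

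Levels of different genes were compared as CPM per kb of exon. In Cre cells with TGF-beta the order was Fgfr1 (40.4 CPM per kb), Fgf2 (30.5), Fgf18 (18.1), Fgf7 (2.78), Fgf1 (0.336), Fgfr3 (0.150), Fgfr2 (0.133) and Fgf10 (0.0272). In Cre cells without TGF-beta it was Fgfr1 (43.0 CPM per kb), Fgf2 (13.7), Fgf7 (7.14), Fgf18 (4.19), Fgf1 (1.33), Fgfr2 (0.520), Fgf10 (0.469) and Fgfr3 (0.155). Fgf18 and Fgf7 thus exchanged places, and Fgfr2 and Fgf10 moved below Fgfr3. GFP cells had the same order in each medium.

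Some neighbours in this order were not separated by their spread. Without TGF-beta, the ranges of the 4 libraries overlapped between Fgf2 and Fgf7, between Fgf7 and Fgf18, and between Fgfr2 and Fgf10, with either virus. With TGF-beta, they overlapped between Fgfr3 and Fgfr2 with either virus, between Fgfr1 and Fgf2 in Cre cells, and between Fgf2 and Fgf18 and between Fgfr2 and Fgf10 in GFP cells. Fgfr1 made up 99.3 ± 0.124% of the summed level of the 3 receptors in Cre cells with TGF-beta and 98.5 ± 0.288% without it (SD, n = 4 each). The GFP cells gave 99.3 ± 0.169% and 98.4 ± 0.543%.

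The make-up of the RNA of the 5 ligands differed with TGF-beta. Of the summed level of the 5 ligands per kb of exon, Fgf18 made up 35.4 ± 8.29% in Cre cells with TGF-beta and 16.7 ± 8.35% without it, and 38.4 ± 5.79% and 17.6 ± 11.0% in GFP cells. Fgf7 made up 5.39 ± 1.73% in Cre cells with TGF-beta and 26.5 ± 2.67% without it, and 4.54 ± 1.40% and 25.4 ± 1.03% in GFP cells. Fgf2 held the largest share in each group, 58.5 ± 7.09% in Cre cells with TGF-beta and 50.1 ± 7.58% without it, and 56.3 ± 5.68% and 50.5 ± 9.72% in GFP cells. The Fgf2 shares overlapped between the media with either virus, and so did those of Fgf18, whose lowest share with TGF-beta was 23.9% in Cre cells and 30.3% in GFP cells, against a highest share without it of 28.3% and 33.8%. For Fgf7 the highest library with TGF-beta was at 7.36% and the lowest without it at 22.6%. Other ligands, among them Fgf21 at 6.96 to 20.6 CPM in the libraries with TGF-beta, are not part of these shares. The shares are of RNA and say nothing of secreted protein.

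**Figure D3:**
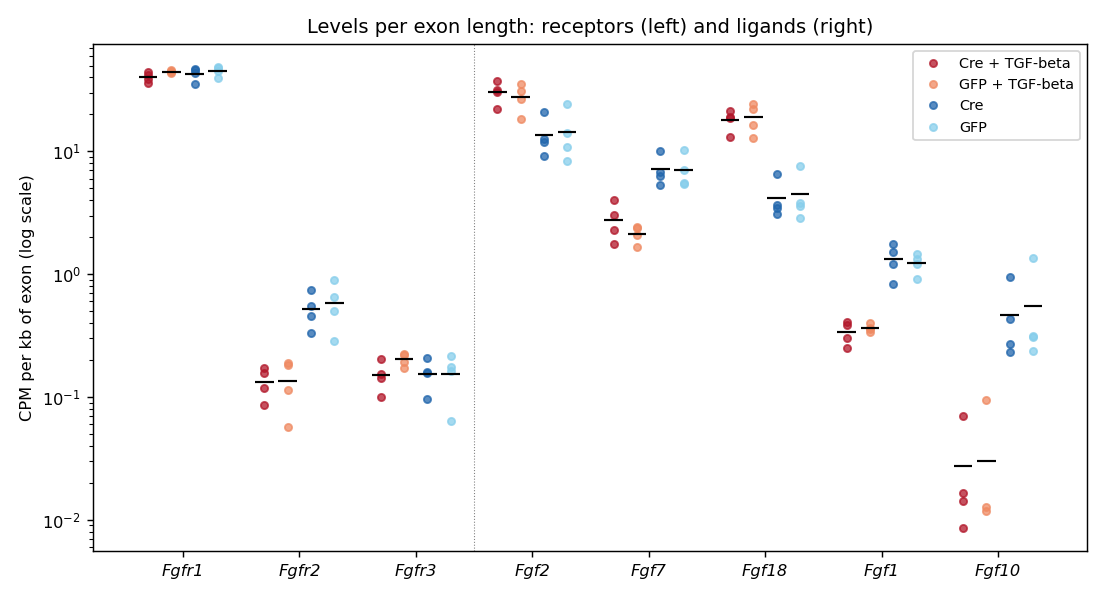
Level of each FGF gene in CPM per kb of exon on a log axis, receptors left of the dotted line and ligands right of it; points are libraries and bars group means, and the GFP library with TGF-beta at 0 counts of Fgf10 cannot be drawn. Group means of Fgfr1 lie between 40.4 and 45.4 CPM per kb, and Fgf18 and Fgf7 exchange places between the media.

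Between Cre and GFP cells, none of the 8 FGF genes passed the test in either medium. Over all genes, 0% were called by edgeR in each medium, with 268 genes at an unadjusted p under 0.05 with TGF-beta and 169 without it. With the preparation as a block, 0.0654% of genes were called with TGF-beta and 0.170% without it, and none of the 8 was among them. The genes at an unadjusted p under 0.05 then numbered 2039 with TGF-beta and 882 without it. DESeq2 called none of the 8 either. The library values given above overlapped between Cre and GFP cells for all 8 genes in both media.

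The largest fitted differences were those of Fgf7 and Fgfr3 in the presence of TGF-beta. Fgf7 averaged 9.03 ± 3.19 CPM in Cre cells with TGF-beta and 6.92 ± 1.12 CPM in GFP cells with TGF-beta (SD, n = 4 each). It was higher in the Cre library of 4 of 4 preparations, by 0.08 to 0.73 on the log2 scale, and the fitted difference was 0.39 with a 95% interval from -0.19 to 0.97 (edgeR adjusted p = 1.00). Fgfr3 averaged 1.08 ± 0.303 CPM in Cre cells with TGF-beta and 1.45 ± 0.177 CPM in GFP cells with TGF-beta. It was lower in the Cre library of 4 of 4 preparations, with a fitted difference of -0.42 and an interval from -1.11 to 0.27 (adjusted p = 1.00). With the preparation as a block, the intervals with TGF-beta were -0.23 to 1.01 for Fgf7 and -0.94 to 0.02 for Fgfr3 (edgeR adjusted p = 0.573 and 0.393). Neither gene showed the same direction in all preparations without TGF-beta.

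Fgfr1 was lower in the Cre library of 4 of 4 preparations in both media, by small amounts. It averaged 399 ± 33.8 CPM in Cre cells and 441 ± 10.9 CPM in GFP cells with TGF-beta, and 424 ± 52.8 CPM and 448 ± 39.0 CPM without it. The fitted differences were -0.15 in the presence of TGF-beta (95% interval -0.37 to 0.07) and -0.08 in its absence (-0.30 to 0.14). With the preparation as a block, the Fgfr1 interval with TGF-beta was -0.29 to -0.0092, all of it negative (edgeR adjusted p = 0.358). Without TGF-beta the blocked interval was -0.22 to 0.06 (adjusted p = 0.873). For Fgf1, Fgf2, Fgf10, Fgf18 and Fgfr2 the fitted differences without the block lay between -0.27 and 0.13 in both media, with both directions among the preparations in each case. The widest interval without the block was that of Fgf10 with TGF-beta, from -2.60 to 2.06, where 1 library held no count.

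The test of the difference between the TGF-beta responses of Cre and GFP cells called none of the 8 genes and 0% of all genes, with 90 genes at an unadjusted p under 0.05, or 501 with the preparation as a block, where again no gene was called. Fgfr3 had the largest difference, -0.40 with a 95% interval from -1.37 to 0.58, followed by Fgf7 with 0.37 and an interval from -0.44 to 1.18. Within preparations, Fgfr3 was negative in 3 of 4 and Fgf7 positive in 3 of 4. Only Fgf2 had the same direction in 4 of 4 preparations, by 0.07 to 0.25, with a fitted difference of 0.21 (95% interval -0.74 to 1.16). For Fgf18 the difference was 0.03 with an interval from -0.90 to 0.96. Fgfr1 had the narrowest interval, from -0.38 to 0.24, and Fgf10 the widest, from -2.50 to 2.37.

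Other genes of the FGF system were read from lists of ligands, receptors, relay proteins, feedback genes and heparan sulfate genes. Of 17 other ligands, 4 passed the filter. Fgf21, a metabolic hormone of the FGF family, rose, with 388, 547, 176 and 201 counts in Cre libraries with TGF-beta against 2, 3, 2 and 2 without it, a depth-scaled ratio of 202 (95% counting interval 106 to 443, edgeR adjusted p = 4.28e-07). In GFP libraries the counts were 212, 710, 138 and 228 with TGF-beta against 0, 2, 5 and 3 without it, a ratio of 124 (67.0 to 259, adjusted p = 9.94e-07). Fgf21 was higher with TGF-beta in 4 of 4 preparations with either virus.

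Fgf23, a phosphate-regulating hormone made mainly in bone, fell, with 1 count in all Cre libraries with TGF-beta against 134 without it, 96.6-fold lower (counting interval 17.0 to 3844, edgeR adjusted p = 0.000141). In GFP libraries it had 2 counts with TGF-beta against 93 without it, 48.4-fold lower (13.0 to 406, adjusted p = 0.000329). Fgf11, which encodes an FGF-related protein that stays inside the cell, fell by 1.76 ± 0.48 on the log2 scale in Cre cells (edgeR adjusted p = 0.0128) and by 1.83 ± 0.49 in GFP cells (adjusted p = 0.0107). Fgf9 differed by 0.19 ± 0.76 and 0.11 ± 0.79 and did not pass. Fgfrl1, an FGF receptor without a kinase domain, was the only 1 of 4 other receptors and co-receptors to pass the filter. It averaged 65.5 ± 18.9 CPM in Cre cells with TGF-beta and 77.8 ± 26.6 CPM without it, and 75.1 ± 25.0 CPM and 76.7 ± 27.3 CPM in GFP cells, and was called, as lower, with the preparation as a block in Cre cells.

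Of 19 tested genes that carry the signal from the receptor into the cell, 3 rose and 2 fell in Cre cells, and 2 rose and 2 fell in GFP cells, with median log2 fold changes of 0.05 and 0.11. The shares called, 26.3% and 21.1%, lay somewhat below the 30.3% and 29.1% of all genes tested. Map2k1, a MAP kinase kinase, rose by 0.56 ± 0.13 in Cre cells and 0.73 ± 0.13 in GFP cells, and the adaptor gene Shc1 fell by 0.55 ± 0.09 and 0.44 ± 0.09. With the preparation as a block, 7 rose and 3 fell in Cre cells, and 6 rose and 3 fell in GFP cells, which is 52.6% and 47.4% of the list against 52.5% and 49.1% of all genes.

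Of 19 feedback and target genes tested, 2 rose and 5 fell in Cre cells, and 2 rose and 6 fell in GFP cells, with medians of -0.59 and -0.53. That is 36.8% and 42.1% of the list, against 30.3% and 29.1% of all genes tested. Spry2, an inhibitor of receptor tyrosine kinase signalling, fell by 1.61 ± 0.19 in Cre cells and by 1.56 ± 0.19 in GFP cells. Its relative Spry4 fell by 1.22 ± 0.17 and 1.30 ± 0.17, and the ETS factor gene Etv5 by 1.42 ± 0.17 and 1.30 ± 0.16. The growth regulator Myc rose by 1.59 ± 0.27 in Cre cells and 1.66 ± 0.27 in GFP cells. Etv4 and Dusp5, also on this list, were higher with TGF-beta in 4 of 4 preparations with either virus. Within preparations the log2 difference of Etv4 was 0.64 to 1.19 in Cre cells and 0.92 to 1.19 in GFP cells. That of Dusp5 was 0.67 to 2.75 and 0.69 to 2.29. With the block, 3 rose and 11 fell in each, 73.7% of the list against 52.5% and 49.1% of all genes.

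Of 21 genes for FGF binding and heparan sulfate that were tested, 3 rose and 6 fell in Cre cells, and 3 rose and 5 fell in GFP cells, with medians of -0.02 and 0.02. The shares called were 42.9% and 38.1%, against 30.3% and 29.1% of all genes tested. Hpse, which encodes the enzyme that cuts heparan sulfate chains, fell by 3.33 ± 0.27 in Cre cells and 3.37 ± 0.27 in GFP cells. Sdc4, a membrane proteoglycan, fell by 1.32 ± 0.20 and 1.31 ± 0.20, and the membrane-anchored proteoglycan gene Gpc1 rose by 0.88 ± 0.12 and 0.93 ± 0.12. With the block, 3 rose and 9 fell in Cre cells, and 3 rose and 6 fell in GFP cells, 57.1% and 42.9% of the list against 52.5% and 49.1% of all genes. None of the genes on these lists was called between Cre and GFP cells in either medium.

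**Figure D4:**
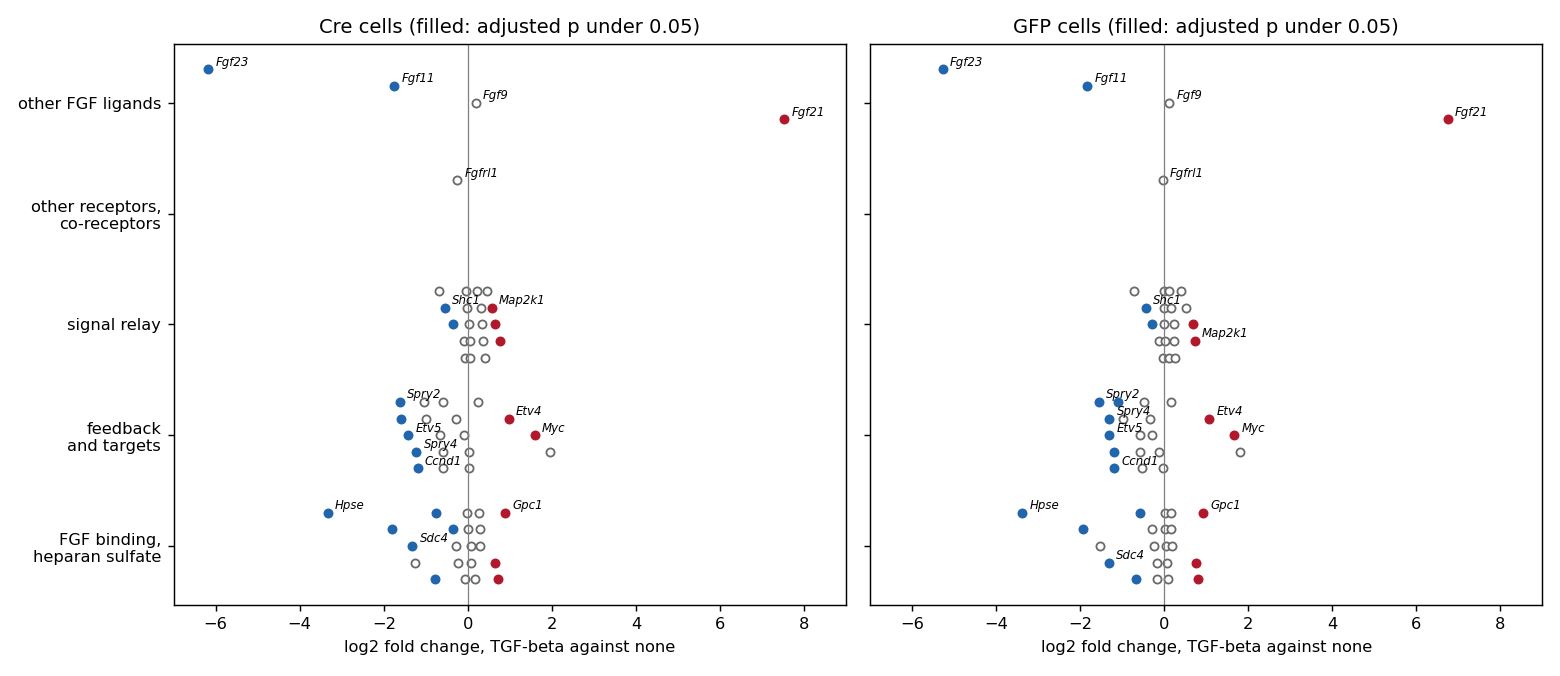
Fitted log2 fold changes with TGF-beta for the tested genes of each FGF list, in Cre cells (left) and GFP cells (right); red and blue points have an adjusted p under 0.05 and open points do not, and vertical offsets have no meaning. Fgf21 and Fgf23 lie farthest out at 7.53 and -6.18 in Cre cells, and relay genes have a median of 0.05 in Cre cells and 0.11 in GFP cells.

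The genes whose pattern over the 16 libraries lay nearest to each FGF gene were found among 11203 to 11204 other tested genes. These had a mean of at least 2 CPM and an established symbol, which left out provisional names such as Gm or Rik numbers. Likeness was the root mean square difference of log2 CPM, each gene centred on its own mean. Nearest were Zfp36l2 (0.228 log2 units) and Nr2f1 (0.231) to Fgf1, Homer1 (0.155) and Micu3 (0.159) to Fgf2, and Nab1 (0.261) and Thbd (0.283) to Fgf7. Next came Clec12a (0.542) and Pi15 (0.584) for Fgf10, Gadd45g (0.275) and Gadd45b (0.309) for Fgf18, and Mfap2 (0.267) and Slc16a9 (0.288) for Fgfr2. For Fgfr1 they were Cep164 (0.0528) and Nckap5l (0.0557), and for Fgfr3 Fads2 (0.237) and Bace1 (0.257). The FGF genes' own spread about their means was 0.947, 0.701, 0.850, 2.00, 1.14, 0.132, 1.12 and 0.449 log2 units for Fgf1, Fgf2, Fgf7, Fgf10, Fgf18, Fgfr1, Fgfr2 and Fgfr3. Fgfr1 and Fgfr3 varied least, so that genes with little variation of their own lay near them. All these patterns share the 16 libraries and their depth.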

How the data were processed

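RNA of 16 cultures was measured, and the deposited table gives the authors' raw counts for 55414 Ensembl gene identifiers, not normalized. The submitters' processing notes name the tools FastQC 0.10.1 and HTSeq 0.10.0 and the build mm39 (GRCm39). Which aligner, annotation and strand setting were used is not given in the sources used here, and overlapping genes are therefore uncertain. Columns were assigned through library names. GENCODE M21, of an earlier build, gave symbols (52081 identifiers, 99.9% of counts) and exon lengths, and Spry3 was not matched.

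Genes were filtered with filterByExpr (minimum count 10, total 15), which kept 15285 genes with 99.9% of counts, and scaled by TMM (0.908 to 1.12). The test was the quasi-likelihood F test of edgeR 4.0.16 (R 4.3.3), robust, with 1 mean per group over 16 libraries, with calls at an adjusted p under 0.05 (Benjamini-Hochberg, over all genes tested). SE was taken from the fold change and the root of F. Within-preparation differences and likeness used log2 CPM with a prior count of 2. The fit without the block was tried on simulated counts, drawn independently for each library and so without differences between preparations. Intervals on counts cover counting error only.

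Same-numbered libraries share a code in their library names and are called a preparation, a reading the labels do not spell out. Their deviations correlated in 24 of 24 pairs (r from 0.323 to 0.838, against at most 0.292 in 72 other pairs), so adding the preparation as a block was 1 alternative. The others were DESeq2 1.42.0, RLE factors, no filter or 5 CPM in 4 libraries, only the groups compared, sex as covariate, and leaving out each library or preparation. Libraries of a group differed beyond sampling noise (chi-square per gene at least 7.24). The FGF genes and lists were chosen with earlier results of these data known. Named are all 8 FGF genes, Has2, Acta2, every tested gene of the ligand and receptor lists, up to 4 called genes per pathway list and comparison by adjusted p, and the 2 nearest genes by likeness. Overlapping genes, Etv4, Dusp5, and marker genes named singly were chosen after their values were seen.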

Additional observations from a re-analysis of the deposited data

Results flagged for a closer look

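In 5 of 56 combinations of gene and group (14 genes), 1 library lay apart from the other 3 beyond Dixon's 95% critical value of 0.829. Chance flags about 1 in 20 groups. Of these, 3 concern Fgf10 in preparation 4. In the TGF-beta libraries of the Cre virus Fgf10 stood at 0.321 CPM, where the other libraries ranged from 0.0395 to 0.0753 CPM. It stood at 0.439 CPM in GFP cells with TGF-beta, where the others ranged from 0 to 0.0585 CPM. In GFP cells without TGF-beta it stood at 6.18 CPM, where the others ranged from 1.08 to 1.44 CPM. The values with TGF-beta rest on 8 and 12 counts.

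The other 2 concern Fgf23 in preparation 3, at 0.0395 CPM in Cre cells and 0.117 CPM in GFP cells with TGF-beta, where the other libraries of these groups held no count. These values are 1 and 2 counts, below the 3 counts that a count of 0 allows. Where the other libraries of a group hold no count, any count in the remaining library is flagged. The chance rate given above does not apply to these 2.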

How the results depend on the processing

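Across all alternatives, 5 or 6 of the 8 FGF genes were called with TGF-beta in Cre cells and in GFP cells, and none between Cre and GFP cells or in the difference of responses. The stricter filter, which tests 6 of the 8, called 5 in each. With no filter, the share of all genes called was 13.4% in Cre cells and 12.8% in GFP cells. The replicate block changed no call among the 8 genes. The Fgf2 call in GFP cells was lost with no filter (0.95, edgeR adjusted p = 0.0788) and with only the groups compared (0.94, adjusted p = 0.0643), as well as without the libraries and preparations named above. Its range over all alternatives was 0.76 to 1.33, with adjusted p from 0.00018 to 0.201. The cause was not tested. Ranked by CPM with no length, 5 of 8 genes kept their place in GFP cells, and all 8 with the longest transcript as length, an alternative chosen after seeing the data.

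Changes of direction were limited to differences that passed no test. For Cre against GFP with TGF-beta, the Fgfr2 difference was 0.020 with the replicate block and 0.00032 with only the groups compared, and leaving out 1 library or preparation gave -0.29 to 0.21. The same gave -0.028 to 0.27 for Fgf2, -1.24 to 1.48 for Fgf10 and -0.22 to 0.072 for Fgf18. Without TGF-beta the ranges were -0.058 to 0.28 for Fgf1, -0.37 to 0.30 for Fgf2, -0.20 to 0.26 for Fgf7, -0.80 to 0.72 for Fgf10, -0.41 to 0.30 for Fgf18, -0.13 to 0.0036 for Fgfr1, -0.40 to 0.11 for Fgfr2 and -0.27 to 0.18 for Fgfr3. With TGF-beta against none they were -0.21 to 0.16 for Fgfr3 in Cre cells and -0.085 to 0.026 for Fgfr1 in GFP cells. For the difference of responses they were -0.16 to 0.50 for Fgf2, -1.03 to 1.69 for Fgf10, -0.37 to 0.34 for Fgf18, -0.13 to 0.0064 for Fgfr1 and -0.20 to 0.45 for Fgfr2. Depth limits Fgf10 with TGF-beta and Fgfr3, whose libraries held as few as 0 and 9 counts.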
